A study of Mus musculus with 2 samples.

Results

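The genes described here are 9 markers and effectors of osteoclast differentiation: *Acp5*, *Ctsk*, *Dcstamp*, *Ocstamp*, *Atp6v0d2*, *Nfatc1*, *Oscar*, *Calcr* and *Itgb3*. They were chosen by name, not by their values, and each matched 1 of the 32285 genes counted. The question was where in the temporomandibular joint (TMJ) their RNA was found, and how much of the set was present in the same cell. The unit is the UMI, a unique molecular identifier that marks 1 captured RNA molecule.

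Osteoclasts are the cells that resorb bone, and they arise by differentiation and fusion of monocyte and macrophage precursors. The cytokines M-CSF and RANKL drive the process, and costimulatory receptors that signal through ITAM adaptors add to the calcium signal that activates NFATc1, the transcription factor regarded as the master regulator of the program. NFATc1, together with AP-1 and MITF, then induces the genes for fusion (DC-STAMP and OC-STAMP), for acid secretion (the d2 subunit of the vacuolar proton pump) and for matrix breakdown (cathepsin K and tartrate-resistant acid phosphatase, TRAP), while the calcitonin receptor and integrin β3 mark mature cells.

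The samples were TMJs of WT C57BL/6 mice, labelled as 8-10 weeks old, that had been injected with PBS or with complete Freund's adjuvant (CFA), which contains killed mycobacteria and causes joint inflammation. According to the methods, the mice were females that received PBS, or CFA at 5 mg/mL, in a volume of 10 µL at 8 weeks of age, and condyle, disc, temporal bone, muscle and ligament (n = 3) were pooled per group 3 weeks later, so that each condition was 1 single-cell RNA sequencing (scRNA-Seq) library. Cells passed a 70 µm filter and CD45+ cells were depleted with magnetic beads, so the cell numbers below are not the makeup of the tissue. Mature osteoclasts are large multinucleated cells, and whether the filter or the droplets held them back was not tested.

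Barcodes with at least 500 genes, at most 10% mitochondrial and at most 1% hemoglobin UMIs were kept. They were 2667 PBS cells with 27201994 UMIs (median 7022 per cell) and 4014 CFA cells with 44432717 UMIs (median 6509.5). The hemoglobin limit removed 3178 PBS but 339 CFA barcodes. Of the barcode sequences, 10 occurred in both libraries, 2 of them among the kept cells. With 1 library per condition, no test between conditions was possible, and all intervals below are exact 95% intervals that cover counting error only.

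The 9 genes and the related pathway genes were kept out of the genes used for clustering. Within the myeloid clusters, the CFA library held 191 Spp1 macrophage-like cells, in which *Spp1*, *Gpnmb*, *Mmp12*, *Cd9*, *Lpl* and *Lgals3* were detected, 75 C1q macrophage-like cells and 67 monocyte-like cells. Also present were a cluster of 258 cells led by *Cxcl9*, *Ccl1* and *Ccl5*, in which *C1qa*, *C1qb* and *C1qc* were detected, a cluster of 65 cells led by *Elane*, *Prtn3* and *Mpo*, and a cluster of 58 cells led by *Ccl17*, *Iglc1* and *Mfge8*. These 3 clusters stayed unnamed and are called by their leading gene. No cluster was named mature osteoclast. The PBS library held 0 Spp1 macrophage-like cells, 6 C1q macrophage-like cells, 17 monocyte-like cells and 10 cells of the Cxcl9-led cluster, so that the description of myeloid cells rests on the CFA library. Without the hemoglobin limit the Spp1 macrophage-like class held 25 PBS cells, of which 15 had an *Acp5* UMI and 0 a *Dcstamp* or *Atp6v0d2* UMI. Depth differed between these classes, from a median of 37232 UMIs in Spp1 macrophage-like to 12608 in C1q macrophage-like, 15686 in Cxcl9-led and 4424 in endothelial-like CFA cells.

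Summed over each library, *Dcstamp*, *Atp6v0d2* and *Acp5* were more abundant in the CFA than in the PBS library. *Dcstamp* was at 1.03 CPM (UMIs per 1000000 UMIs of all genes in the same cells) in the PBS library, from 28 UMIs, and at 123 CPM in the CFA library, from 5451 UMIs, a ratio of 119 (82.4 to 179.5). *Atp6v0d2* was at 1.03 and 56.5 CPM, a ratio of 54.9 (37.9 to 82.8). *Acp5* was at 16.0 CPM (435 UMIs) and 121 CPM (5365 UMIs), a ratio of 7.55 (6.85 to 8.34). All 28 PBS UMIs of *Dcstamp* were in 5 cells of 1 unnamed cluster and 16 of them in 1 cell, without which its ratio was 278 (159 to 538). As a mean over cells instead of a sum, the ratios were lower, at 69.6 for *Dcstamp*, 26.6 for *Atp6v0d2* and 3.72 for *Acp5*. All these ratios lie above the median ratio of all genes, which was 0.861 over 17025 genes.

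Among the other members, 1 had a ratio above 2 and the rest did not. PBS cells had 93.1 and CFA cells 94.5 CPM of *Ctsk* (ratio 1.02, 0.966 to 1.07). *Nfatc1* was at 95.7 and 77.0 (0.804, 0.764 to 0.847), *Calcr* at 6.43 and 5.15 (0.801, 0.655 to 0.981) and *Itgb3* at 24.1 and 14.5 CPM (0.601, 0.538 to 0.671). The PBS cell with the most UMIs of the gene held 26 of 175 *Calcr* and 171 of 655 *Itgb3* UMIs, and the ratios without it were 0.941 (0.762 to 1.16) and 0.811 (0.720 to 0.914). *Ocstamp* had 3 UMIs in PBS and 18 in CFA cells (ratio 3.67, 1.07 to 19.5), with all 3 in 1 PBS cell, and *Oscar* had 4 and 5. Of the 8 members with at least 10 UMIs over both libraries, 4 were at least 2-fold higher and 0 were at least 2-fold lower in the CFA library, against 10.4% and 11.8% of all 19598 genes with as many UMIs.

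The myeloid clusters, which do not include the neutrophil-like cells, carried most of this difference, and they held 62 PBS and 726 CFA cells. Of the CFA UMIs, 89.7% of *Acp5*, 97.5% of *Dcstamp* and 94.6% of *Atp6v0d2* were in myeloid clusters, and Spp1 macrophage-like cells alone held 66.2%, 81.4% and 81.2%. Outside the myeloid clusters, *Acp5* was at 16.2 CPM in PBS and 19.6 in CFA cells (ratio 1.21, 1.06 to 1.37). *Dcstamp* was at 1.07 and 4.84 (4.53, 3.00 to 7.07, or 10.6 without that PBS cell) and *Atp6v0d2* at 0.915 and 4.80 there (5.25, 3.38 to 8.47). *Ctsk* was divided differently, with 20.5% of its CFA UMIs in myeloid clusters and 62.0% in fibroblast- or tenocyte-like cells. In the PBS library, 68.4% of the *Ctsk* UMIs were in fibroblast- or tenocyte-like cells.

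**Figure D1:**
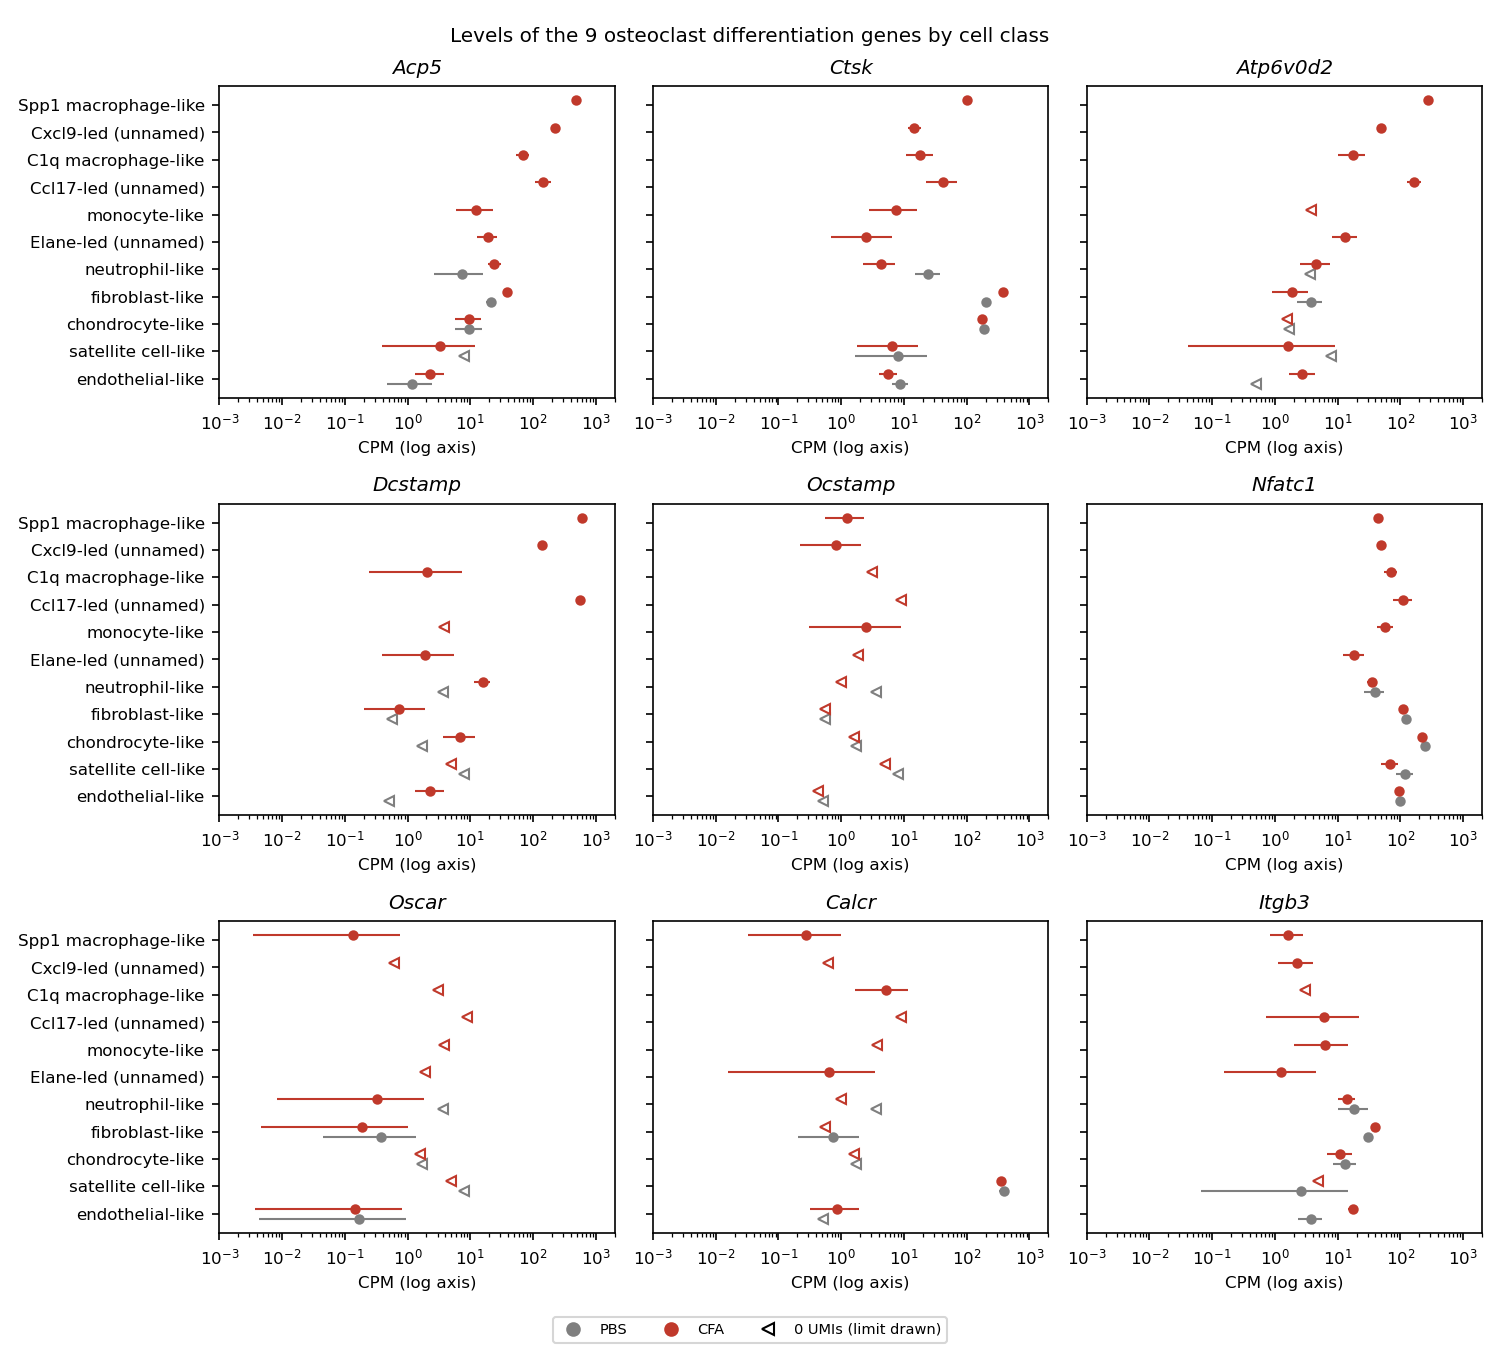
CPM (log axis) of each of the 9 genes in 11 cell classes of the PBS (grey) and CFA (red) library, for classes with at least 20 cells in that library. Points are sums over the cells of a class, bars are exact Poisson 95% intervals, and open triangles mark the limit of 3 UMIs where none was counted; *Acp5*, *Atp6v0d2* and *Dcstamp* were higher in Spp1 macrophage-like than in C1q macrophage-like cells, *Ctsk* was higher in fibroblast-like than in Spp1 macrophage-like cells, and *Calcr* was at its highest of the classes drawn in satellite cell-like cells.

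*Acp5* encodes TRAP, the enzyme by which osteoclasts are stained, and lies on chromosome 9 of GRCm38 from 22126727 to 22135711. In the CFA library it was at 482 CPM (467 to 499) in Spp1 macrophage-like cells, at 226 (213 to 239.5) in the Cxcl9-led cluster, at 146 in the Ccl17-led cluster and at 68.0 (52.7 to 86.4) in C1q macrophage-like cells. Monocyte-like cells had 12.5, Elane-led cells 18.8 and neutrophil-like cells 24.2 CPM, so that *Acp5* was lower in each of these than in any macrophage class. Of the 58 Ccl17-led cells, 1 cell held 51.0% of the UMIs, and the level without it was 87.0 CPM.

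*Acp5* was spread over the Spp1 macrophage-like class rather than held by a few cells. The middle of the 191 cells lay between 8 and 25 UMIs per cell (quartiles), with a median of 15 and a highest cell of 127. A UMI was found in 97.4% of them (94.0 to 99.1%), in 65.5% of Cxcl9-led, 29.3% of C1q macrophage-like and 1.54% of endothelial-like cells, the latter a class that should lack the gene. After each cell was thinned to 1000 UMIs, the shares were 38.7%, 19.4%, 4.00% and 0.0962%, in the same order and all above the endothelial share.

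*Ctsk*, which encodes cathepsin K, the protease that cleaves type I collagen in bone, lies on chromosome 3 from 95499256 to 95509362. Among myeloid CFA cells it was at 101 CPM (94.2 to 109) in Spp1 macrophage-like cells, 41.8 in the Ccl17-led cluster, 18.3 in C1q macrophage-like cells and 14.7 in the Cxcl9-led cluster. A single Spp1 macrophage-like cell held 138 *Ctsk* UMIs, 18.5% of the class, and the level without it was 83.7 CPM. The median cell of the class held 2 UMIs. Stromal cells had more: fibroblast-like cells were at 383 CPM (367 to 400.2) and tenocyte-like cells at 381 (349 to 415) in the CFA library. The 2 stromal classes stood first in the order of *Ctsk* levels, with overlapping intervals, and both stood above all myeloid classes.

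Fibroblast-like cells also differed in *Ctsk* between the libraries. The level was 200.2 CPM in PBS and 383 in CFA cells, a ratio of 1.91 (1.78 to 2.06), and it was 314 and 381 in tenocyte-like cells (1.22, 1.08 to 1.36). *Acp5* in fibroblast-like cells was at 21.4 and 38.5 CPM (1.80, 1.43 to 2.29), and 1 PBS cell held 42 of the 115 PBS UMIs. The class pools 3 clusters, in which the *Acp5* ratio was 1.45 (1.02 to 2.05), 1.58 (0.787 to 3.22) and 4.18 (2.51 to 7.39), and the *Ctsk* ratio 1.89, 1.41 and 1.87. Chondrocyte-like cells had 187 and 177 CPM of *Ctsk* (0.949, 0.812 to 1.11).

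The RefSeq windows of the 250 bases before a start site are shown for *Acp5* and *Ctsk*, which were both higher in Spp1 than in C1q macrophage-like cells, and for *Calcr*, which was found in other cells. Each is given 5′ to 3′ on the strand of its gene (GRCm38.p6). Capitals mark every match, on either strand, to GGAAA (the core bound by NFAT), TGANTCA (bound by AP-1) and CANNTG (the E-box, bound by MITF among many factors); no matches overlap in these windows.
Acp5, chr9:22135747-22135996, minus strand: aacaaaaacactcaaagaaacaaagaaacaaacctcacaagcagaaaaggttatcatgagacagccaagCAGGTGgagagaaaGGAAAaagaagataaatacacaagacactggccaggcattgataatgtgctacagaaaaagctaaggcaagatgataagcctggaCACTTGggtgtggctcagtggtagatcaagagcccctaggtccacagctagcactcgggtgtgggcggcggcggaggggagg
Ctsk, chr3:95498960-95499209, plus strand: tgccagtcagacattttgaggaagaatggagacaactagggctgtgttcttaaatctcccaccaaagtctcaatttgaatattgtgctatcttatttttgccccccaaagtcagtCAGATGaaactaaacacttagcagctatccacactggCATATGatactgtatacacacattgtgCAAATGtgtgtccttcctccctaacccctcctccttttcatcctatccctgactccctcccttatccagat
Calcr, chr6:3764714-3764963, minus strand: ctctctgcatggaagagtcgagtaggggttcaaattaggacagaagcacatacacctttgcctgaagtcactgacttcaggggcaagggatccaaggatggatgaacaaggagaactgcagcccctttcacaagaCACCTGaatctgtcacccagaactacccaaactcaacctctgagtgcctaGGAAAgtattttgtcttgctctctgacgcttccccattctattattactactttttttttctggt

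The *Acp5* window held 1 GGAAA and 2 CANNTG matches, the *Ctsk* window 0 and 3, the *Calcr* window 1 and 1, and the *Oscar* window (not shown) 3 and 4. TGANTCA was in none of these 4 windows. Of all 32851 windows of this length, 55.6% held GGAAA, 66.2% CANNTG and 6.75% TGANTCA, so the first 2 are common in any window. A match describes letters in a window and is not a binding site. For *Acp5* and *Calcr*, which have 3 and 2 listed windows, the one nearest the annotated gene start is shown.

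*Atp6v0d2* encodes the d2 subunit of the membrane part of the vacuolar proton pump, which acidifies the resorption space and is also needed for fusion, and lies on chromosome 4 from 19876841 to 19922605. It was at 277 CPM (265 to 289.7) in Spp1 macrophage-like cells, 167 (126 to 217) in the Ccl17-led cluster and 49.3 (43.3 to 56.0) in the Cxcl9-led cluster. In C1q macrophage-like cells it was at 17.3, with all 17 UMIs in 1 cell, and in Elane-led cells at 13.2, with all 21 UMIs in 1 cell. Monocyte-like cells had 0 UMIs, which allows a level of up to 3.74 CPM. Among Spp1 macrophage-like cells, 78.0% held a UMI (71.5 to 83.7%), with quartiles of 1 and 17 UMIs per cell, against 1.44% of endothelial-like cells. Thinned to 1000 UMIs, the shares were 21.5% and 0.192%.

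The fusion genes differed sharply from each other. *Dcstamp*, on chromosome 15 from 39745930 to 39760938, encodes the DC-STAMP protein needed for cell fusion. It was at 603 CPM (585 to 621) in Spp1 macrophage-like cells and at 564 (486 to 650.4) in the Ccl17-led cluster, with overlapping intervals, and at 139.8 in the Cxcl9-led cluster. C1q macrophage-like cells had 2 UMIs, or 2.03 CPM, and monocyte-like cells 0, which allows up to 3.74. Endothelial-like cells were at a like level, 2.31 CPM. *Ocstamp*, on chromosome 2 from 165393760 to 165400405 and the partner of *Dcstamp* in fusion, had 9 UMIs in 8 of the 191 Spp1 macrophage-like cells (1.22 CPM), 4 UMIs in the Cxcl9-led cluster and 0 in the C1q macrophage-like and Ccl17-led classes, which allows up to 3.05 and 8.95 CPM.

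In the Ccl17-led cluster, the *Dcstamp* UMIs were in 16 of the 58 cells (27.6%, 16.7 to 40.9%). Thinned to 1000 UMIs, the share there was 22.2% (12.0 to 35.6%) of 54 cells. The median cell held 0 UMIs, the highest held 54 of the 189 UMIs, and the level without that cell was 489 CPM. In Spp1 macrophage-like cells the quartiles were 3.5 and 34 UMIs, the median 14 and the highest 135. A *Dcstamp* UMI was present in 85.3% of Spp1 macrophage-like, 29.5% of Cxcl9-led, 2.67% of C1q macrophage-like and 1.54% of endothelial-like cells. Thinned to 1000 UMIs, these shares were 40.3%, 7.36%, 0% (0 to 4.80%) and 0.673%, so the C1q macrophage-like class could not be told from the endothelial background.

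*Nfatc1*, the gene of the master transcription factor, was not highest in Spp1 macrophage-like cells. Its level was 18.2 CPM (12.2 to 26.1) in Elane-led cells, 44.6 (39.9 to 49.7) in Spp1 macrophage-like cells, 48.9 (42.9 to 55.5) in the Cxcl9-led cluster, 57.4 (42.0 to 76.5) in monocyte-like cells, 70.1 (54.5 to 88.7) in C1q macrophage-like cells and 110.4 (77.7 to 152) in the Ccl17-led cluster. Elane-led cells lay below the Spp1 macrophage-like cells with intervals that did not overlap, and the other neighbours in this order had overlapping intervals. Of the classes outside the myeloid clusters, some were higher than the Spp1 macrophage-like cells, with 95.8 in endothelial-like, 222 in chondrocyte-like and, over 12 cells, 484 CPM in lymphatic-like cells. Others were lower or alike, with 27.6 CPM (19.0 to 38.7) in an unnamed cluster led by *Dok6*, 35.6 in neutrophil-like and 41.9 in osteoblast- or osteocyte-like cells. As counted, 62.8% of Spp1 macrophage-like and 52.0% of C1q macrophage-like cells held an *Nfatc1* UMI, but at 1000 UMIs per cell the shares were 4.19% and 4.00%, below the 10.2% of endothelial-like cells.

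The receptor genes had few UMIs in macrophages. *Oscar*, which encodes a collagen-binding costimulatory receptor and lies on chromosome 7 from 3609813 to 3616157, had 1 UMI in the 191 Spp1 macrophage-like cells and 5 UMIs in the whole CFA library. *Itgb3*, on chromosome 11 from 104608000 to 104670476, encodes the β3 chain of the integrin by which osteoclasts attach to bone. It had 12 UMIs in Spp1 macrophage-like cells (1.63 CPM, 0.843 to 2.85) and 0 in C1q macrophage-like cells, which allows up to 3.05. Endothelial-like cells were at 3.73 CPM in PBS and 17.9 in CFA cells (ratio 4.80, 3.03 to 7.94). Of their 5 clusters, 2 held nearly all of the 124 CFA UMIs (36 and 86 UMIs, 30.4 and 30.5 CPM), and the others were at 1.80, 0 and 0 CPM.

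Among the classes with at least 20 cells, *Itgb3* was at its highest in an unnamed cluster led by *Siglech*, *Grap2* and *Ifng*, at 503 CPM in 45 PBS and 86.2 in 89 CFA cells. In the PBS library, 1 of these cells held 66.0% of the UMIs, and the level without it was 203. In the CFA library a cluster of 16 cells led by *Fabp7* was at 129 CPM (93.8 to 172). *Calcr*, the calcitonin receptor gene on chromosome 6 from 3685680 to 3764714, was found almost only in satellite cell-like cells, the muscle stem cells in which this receptor is also known. Their level was 387 CPM among PBS and 347 among CFA cells, with 84.0% and 92.6% of all *Calcr* UMIs of the classes with at least 20 cells. The macrophage classes had 2 UMIs in 1 Spp1 macrophage-like cell, 5 in 1 C1q macrophage-like cell and 0 in the Cxcl9-led cluster.

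**Figure D2:**
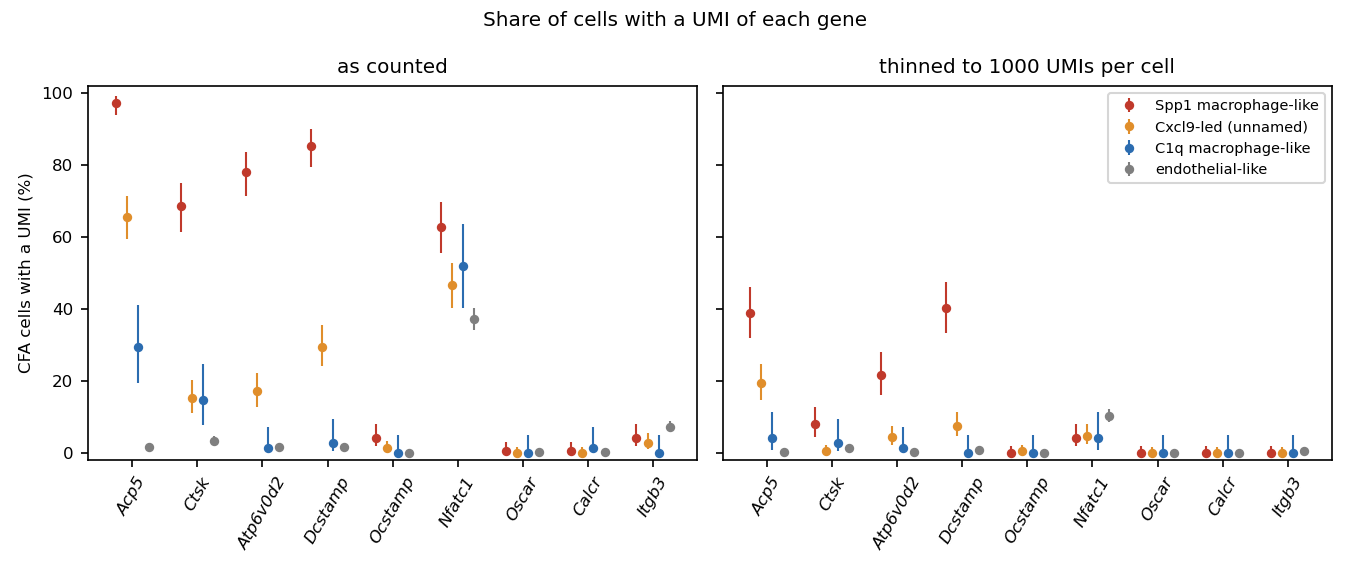
Share of CFA cells with at least 1 UMI of each gene, as counted (left) and after each cell was thinned to 1000 UMIs (right), in Spp1 macrophage-like, Cxcl9-led, C1q macrophage-like and endothelial-like cells, with exact binomial 95% intervals. For *Acp5*, *Dcstamp* and *Atp6v0d2*, Spp1 macrophage-like cells had the highest share of these 4 classes at both depths, whereas the *Nfatc1* share of Spp1 macrophage-like cells went from 62.8% to 4.19%.

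How complete the program was in cells with *Acp5* was examined next. An *Acp5* UMI was found in 643 of the 4014 CFA cells, of which 409 (63.6%) were in myeloid clusters. The Spp1 macrophage-like class held 186 of them (28.9%), the Cxcl9-led cluster 169 (26.3%) and fibroblast-like cells 86 (13.4%). In the PBS library 183 cells held an *Acp5* UMI, but only 6 of these were in the myeloid clusters and 5 were neutrophil-like. Fibroblast-like cells (52), B cell-like cells (34) and an unnamed cluster led by *Bpifa1* (28) held most of them. The myeloid clusters had only 62 of the 2667 PBS cells. An *Acp5* UMI was in 9.68% (3.63 to 19.9%) of those and 6.79% (5.86 to 7.83%) of the other PBS cells, with overlapping intervals. *Acp5* by itself thus did not pick out the myeloid clusters in the PBS library.

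Among the 186 *Acp5*-positive Spp1 macrophage-like cells, the median number of the other 8 members with a UMI was 3 and the highest 5. At least 3 of the others were present in 68.8% (61.6 to 75.4%). A set of 4 core genes, *Acp5*, *Ctsk*, *Dcstamp* and *Atp6v0d2*, was complete in 92 cells, or 49.5% (42.1 to 56.9%). These 4 are the members at least 2-fold higher in Spp1 than in C1q macrophage-like cells (below). The core set therefore describes the classes and is no separate evidence of a difference between them. It leaves out *Nfatc1*, *Ocstamp*, *Oscar*, *Calcr* and *Itgb3*. In the 169 *Acp5*-positive Cxcl9-led cells, 18.3% (12.8 to 25%) held at least 3 others and 4.14% (1.68 to 8.35%) the core set, and of the 22 *Acp5*-positive C1q macrophage-like cells 0 held either (0 to 15.4%). Of the 86 *Acp5*-positive fibroblast-like cells, 33.7% (23.9 to 44.7%) held at least 3 others and 0 the core set (0 to 4.20%). Of the 14 in the Ccl17-led cluster, 35.7% (12.8 to 64.9%) held at least 3 others and 1 cell the core set. At least 3 others were thus not particular to macrophage classes.

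**Figure D3:**
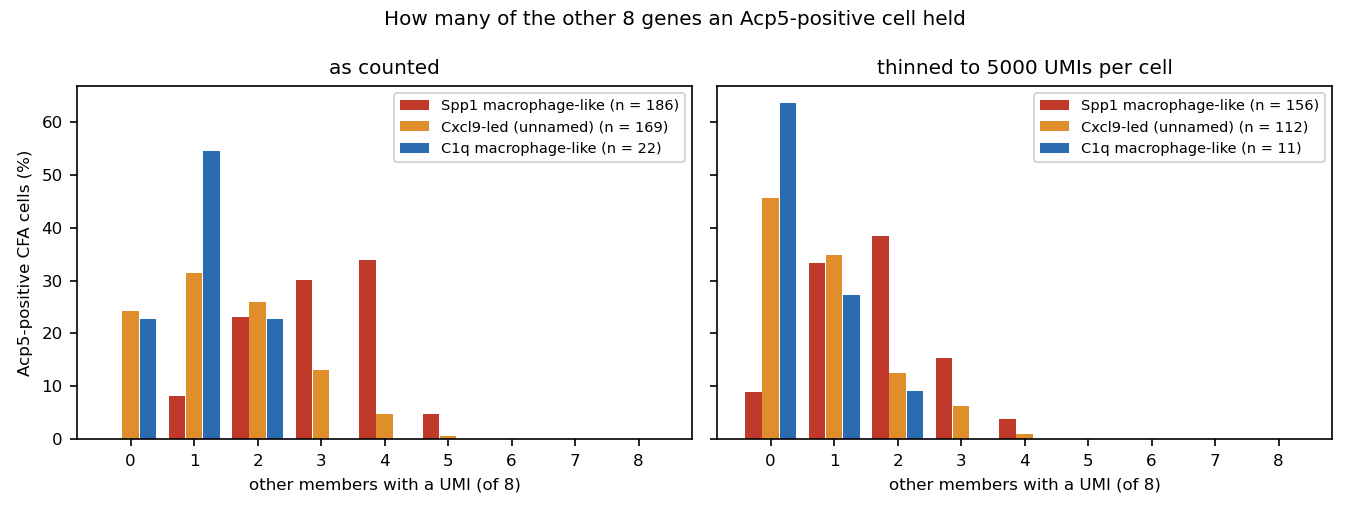
Percentage of *Acp5*-positive CFA cells by the number of the other 8 genes with a UMI, as counted (left) and after thinning to 5000 UMIs per cell (right), for Spp1 macrophage-like, Cxcl9-led and C1q macrophage-like cells. No cell held more than 5 of the other 8, and the Spp1 macrophage-like cells lay to the right of the other classes at both depths.

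These counts depend on depth. When every cell was thinned to 5000 UMIs, 81.7% of Spp1 macrophage-like cells stayed *Acp5*-positive (156 cells), their median was 2 other members, 19.2% (13.4 to 26.3%) held at least 3 others and 10.9% (6.48 to 16.9%) the core set. Of the thinned Cxcl9-led cells 44.6% were *Acp5*-positive, and among these 7.14% (3.13 to 13.6%) held at least 3 others and 0.893% (0.0226 to 4.87%) the core set. As counted, the intervals of the Spp1 macrophage-like and Cxcl9-led cells did not overlap for the share with at least 3 others, whereas at 5000 UMIs they did, by a small margin.

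Among all 191 Spp1 macrophage-like cells, the core set was complete in 48.2%, and the most frequent other combinations were *Acp5*, *Dcstamp* and *Atp6v0d2* without *Ctsk* (33 cells, 17.3%), *Acp5* and *Dcstamp* alone (18 cells) and *Acp5*, *Ctsk* and *Dcstamp* (16 cells). *Acp5* alone was found in 1 cell. No cell of either library held more than 6 of the 9 members. The 10 CFA cells with 6 were 9 Spp1 macrophage-like cells and 1 Cxcl9-led cell. The cell with the most *Acp5* among them held 63 *Acp5*, 43 *Dcstamp*, 27 *Atp6v0d2*, 10 *Ctsk*, 2 *Nfatc1* and 2 *Ocstamp* UMIs out of 52605, and 0 of *Oscar*, *Calcr* and *Itgb3*.

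**Figure D4:**
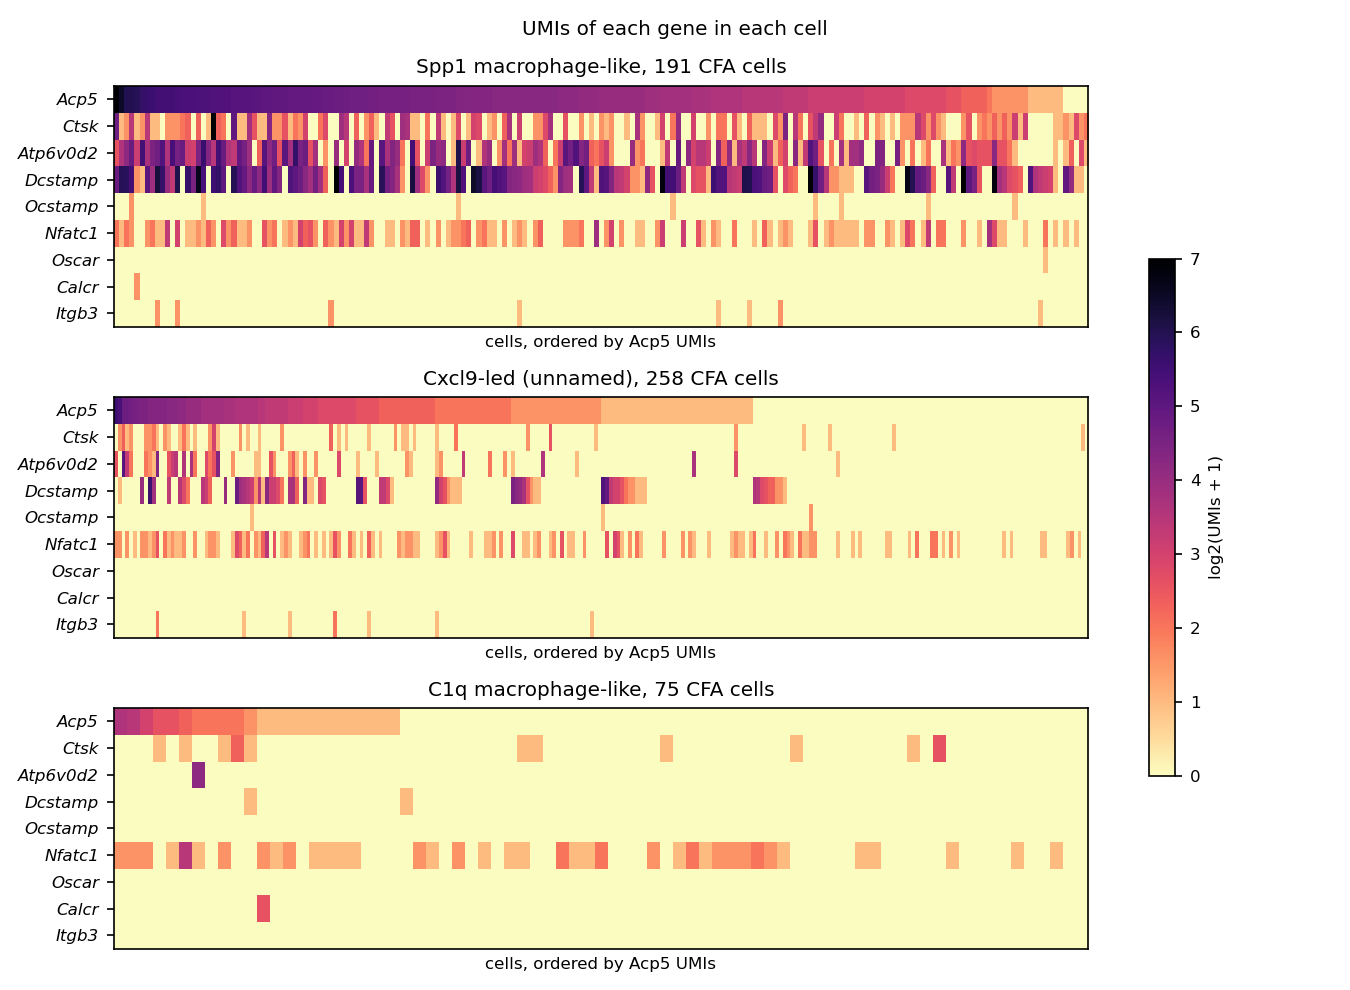
UMIs of each of the 9 genes (rows) in each CFA cell (columns) of the Spp1 macrophage-like class, the Cxcl9-led cluster and the C1q macrophage-like class, with cells ordered by their *Acp5* UMIs and colour on the scale log2(UMIs + 1). *Dcstamp* and *Atp6v0d2* were in 85.3% and 78.0% of the Spp1 macrophage-like cells, whereas *Oscar* was in 1 of them and *Calcr* in 1 of them and 1 C1q macrophage-like cell.

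Within the Spp1 macrophage-like class, the other genes did not track the level of *Acp5* in a steady way. At 5000 UMIs per cell, a *Dcstamp* UMI was found in 68.6% of the 35 cells with no *Acp5* UMI, 69.7% of the 33 cells with 1, 67.3% of the 98 cells with 2 to 4 and 68.0% of the 25 cells with 5 or more. *Ctsk* was found in 37.1%, 18.2%, 27.6% and 24.0%, and *Atp6v0d2* in 54.3%, 51.5%, 63.3% and 60% of the same cells. In the Cxcl9-led cluster the *Acp5*-positive cells held *Dcstamp* more often, with intervals that did not overlap. At the same depth it was in 31.2% (22.8 to 40.7%) of 112 *Acp5*-positive and 12.2% (7.29 to 18.9%) of 139 *Acp5*-negative cells. *Atp6v0d2* was in 12.5% (7.01 to 20.1%) and 3.60% (1.18 to 8.19%), *Ctsk* in 8.93% (4.36 to 15.8%) and 1.44% (0.175 to 5.10%) and *Nfatc1* in 27.7% (19.6 to 36.9%) and 18.7% (12.6 to 26.2%) of them, each with overlapping intervals.

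To place the members among all genes, Spp1 macrophage-like cells were set against C1q macrophage-like cells of the same library. The clusters were formed from other genes of these same cells, so this is a description of the classes and not a test. *Dcstamp* was 297-fold higher (82.1 to 2452, from 4437 and 2 UMIs), *Atp6v0d2* 16.1-fold (10.0 to 27.6), *Acp5* 7.09-fold (5.57 to 9.17) and *Ctsk* 5.55-fold (3.49 to 9.41). *Nfatc1* was lower, with a ratio of 0.636 (0.489 to 0.837). These sizes depend on how the classes were drawn, which includes a resolution set after the data were seen: over 10 alternatives the ratio went down to 6.52 for *Dcstamp*, 5.41 for *Atp6v0d2*, 2.49 for *Acp5* and 4.87 for *Ctsk*, and up to 0.939 for *Nfatc1*. Of the 6 members with at least 10 UMIs in these classes, 4 were at least 2-fold higher and 0 at least 2-fold lower, against 8.56% and 24.9% of the 11720 genes with as many UMIs. *Itgb3*, with 12 and 0 UMIs, has no ratio of its own. The median ratio was 7.09 over the other 5 of these members, 6.32 with *Itgb3* at the limit of 3 UMIs for a count of 0, and 0.747 over all genes treated in the latter way.

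The other genes of the pathway are given beside the shares over all genes in the same comparison, 8.56% higher and 24.9% lower, and the median ratio of 0.747. Of 9 genes of RANK signalling and costimulation, 1 was at least 2-fold higher (*Src*, a kinase needed for bone resorption, 61.2 against 8.12 CPM, ratio 7.53) and 2 were lower: *Tnfrsf11a*, which encodes the RANKL receptor RANK (18.3 against 125, ratio 0.147, 0.114 to 0.189), and *Plcg2* (0.435), a phospholipase of the calcium signal. The list's median ratio was 1.22. Of 6 transcription factor genes, 1 was higher (*Prdm1*, which encodes a repressor of osteoclast inhibitors, ratio 2.27) and 2 were lower (*Fos*, 0.377, and *Jdp2*, 0.393), with a median of 0.877. *Mitf* was at 523 and 546 CPM, a ratio of 0.957 (0.874 to 1.05).

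Of the genes that restrain the program, *Irf8* (0.736) and *Bcl6* (0.507) were within 2-fold. Of 12 genes of the acid and resorption machinery 0 were higher and 2 lower, *Plekhm1* (0.478) and *Atp6v0a1* (0.302), with a list median of 0.875. *Tcirg1*, which encodes the osteoclast a3 subunit of the proton pump, was at 123 and 70.1 CPM (1.76, 1.38 to 2.28). Of 6 genes of fusion 2 were higher, *Adam8* (303 against 34.5, ratio 8.78, 6.27 to 12.7) and *Tspan5* (208 against 68.0, ratio 3.06), and the list median was 0.871. Of the 4 ligand and decoy genes only *Csf1* had enough UMIs, at a ratio of 1 (0.627 to 1.69).

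**Figure D5:**
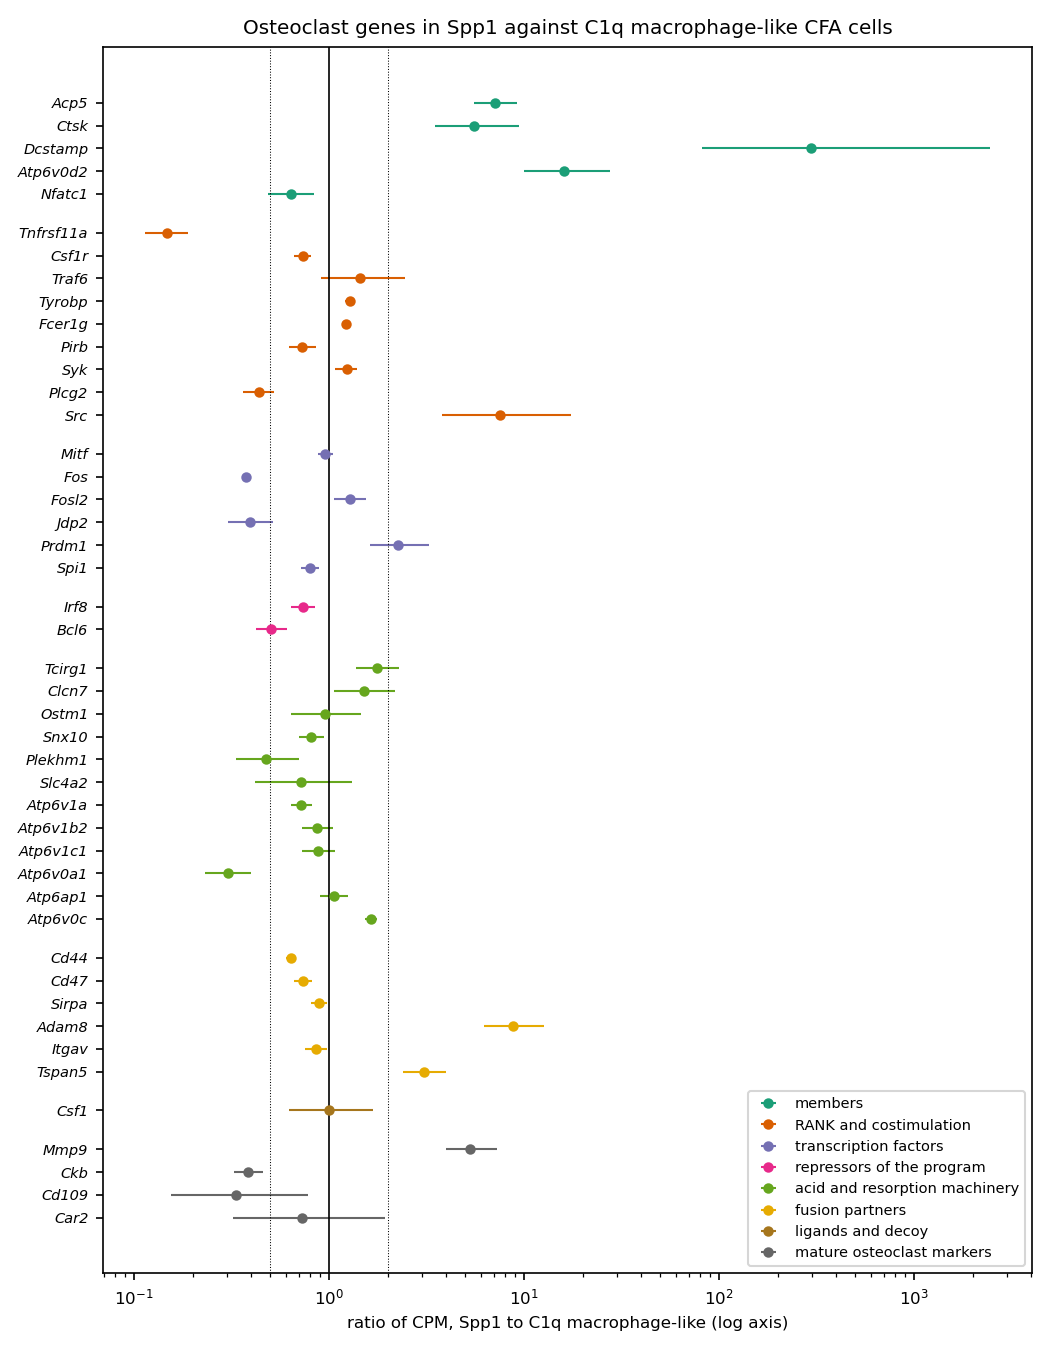
Ratio of CPM in Spp1 macrophage-like to C1q macrophage-like CFA cells (log axis) for 5 members and the reported pathway genes with at least 10 UMIs and a UMI in both classes, with exact 95% intervals for counting error. The solid line marks equal levels and the dotted lines 2-fold; *Dcstamp*, *Atp6v0d2*, *Acp5* and *Ctsk* lie beyond 2-fold, and most genes of the acid machinery lie between the dotted lines.

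The 6 markers set for mature osteoclasts did not come together in these cells. *Mmp9*, which encodes a gelatinase and helped to form the cluster, was at 247 CPM in Spp1 and 46.7 in C1q macrophage-like cells (5.30, 3.96 to 7.26). *Ckb* was lower in the former (69.0 against 179, ratio 0.386), as was *Cd109* (ratio 0.335), *Car2* was at 5.16 and 7.11, *Slc9b2* had 4 and 0 UMIs, and *Siglec15* had 0 in both. Only 1 of the 191 Spp1 macrophage-like cells held at least 4 of the 6 markers. The median was 2 markers in the 92 cells with the core set (median depth 45652 UMIs) and 1 in the 99 cells lacking a core gene (30355 UMIs).

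Over the 21 CFA classes with at least 20 cells, among the genes whose levels were most like those of *Acp5* were *Blvrb* (Pearson r of log2(CPM + 10), 0.923), *Atp6v0d2* (0.895), *Hmox1* (0.882) and *Cxcl16* (0.873). *Blvrb* and *Hmox1* encode enzymes of heme breakdown, and *Cxcl16* encodes a chemokine. Without the Spp1 macrophage-like class the values were 0.89, 0.84, 0.82 and 0.83. Of the other members, *Dcstamp* was at 0.78, *Ctsk* at 0.10 and *Nfatc1* at -0.03. The classes come from 1 library and differ in depth, so these values are a description.

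*Acp5*-positive cells outside the myeloid clusters differed by class in their level of macrophage marker RNA. In the 27 *Acp5*-positive cells of the Bpifa1-led CFA cluster, the 8 C1q macrophage markers were together at 557 CPM, with 5 of 8 detected, against 109 and 7 of 8 in the 45 *Acp5*-negative cells. *Csf1r*, the M-CSF receptor gene, was in 37.0% and 11.1% of them. The 20 *Acp5*-positive neutrophil-like CFA cells had 1225 CPM of these markers and *Csf1r* in 70.0%, against 530.1 and 20.2% in the other 331. In the 86 *Acp5*-positive fibroblast-like CFA cells the markers were at 81.2 CPM and *Csf1r* in 4.65% of cells, against 20.7 and 3.18%. In the 16 *Acp5*-positive endothelial-like CFA cells the markers were lower (18.2 against 37.6 CPM), but *Csf1r* was in 12.5% against 1.75%. *Csf1r* was also more frequent in *Acp5*-positive CFA chondrocyte-like and PBS neutrophil-like cells. It was in 0% of *Acp5*-positive CFA B cell-like and tenocyte-like cells, against 1.28% and 4.95% of the others. In the other PBS classes compared, 0% of the *Acp5*-positive cells held it. These shares are as counted, and depth differed. *Acp5*-positive cells had a median of 19428 against 4193 UMIs in neutrophil-like and 23436 against 10520 in fibroblast-like CFA cells. Over the classes compared, the summed C1q macrophage markers were higher in the *Acp5*-positive cells in 4 of 7 CFA and 3 of 6 PBS classes, and lower in the rest. The 8 Spp1 macrophage markers were higher in 5 of 7 CFA and 6 of 6 PBS classes, and lower in CFA endothelial-like and chondrocyte-like cells. This set is not particular to macrophages here. In *Acp5*-negative PBS cells it was at 2113 CPM in endothelial-like, 1448 in fibroblast-like and 3978 in chondrocyte-like cells, with 0 Spp1 macrophage-like cells in that library. Whether RNA or cells of macrophages account for the marker UMIs in *Acp5*-positive cells was not tested.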

How the data were processed

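The authors deposited UMI counts per gene and barcode as raw counts for 1 PBS and 1 CFA library. The submitters' processing notes name Cell Ranger 7.0.1 and mm10, and the methods say that Cell Ranger aligned the reads and filtered the barcodes. The sample labels give the v2 kit and the methods the v3.1 kit, and the enzymes and times of digestion differ between them too. Cells with under 500 genes or over 10% mitochondrial UMIs were removed as in the methods, and cells with over 1% hemoglobin UMIs were removed in addition. No column of the files was left without a sample (0 unused).

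Seurat 5.3.0 (SeuratObject 5.2.0, R 4.3.3) normalized each library with SCTransform, integrated both on 3000 genes less the members and pathway genes, and clustered on 200 principal components at a resolution of 1.5. Myeloid clusters were clustered again on 30 components at 0.6, a value set after the data were seen because monocytes and Elane-led cells stayed together at 0.3. A class needed at least 3 markers, each in 25% of the cells and 2-fold above the other cells. With exactly 3, it also needed a marker of its own among the 10 leading genes of the cluster. Clusters with more markers of another class among those 10 genes stayed unnamed. So did clusters under 0.333 of their library's median UMI count without a marker of their own among them. Doublets were scored with Scrublet in scanpy 1.11.5, which called 21 PBS and 2 CFA cells; these were kept, since so few calls do not separate doublets, and removal of the 5% with the highest scores was an alternative.

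Python 3.11.15 (numpy 2.4.6, scipy 1.17.1, pandas 2.3.3, matplotlib 3.10.9) computed sums, exact Poisson and Clopper-Pearson intervals and conditional binomial intervals of ratios, all at 95%. A count of 0 was given a limit of 3 UMIs, and genes needed 10 UMIs over both groups to be counted as 2-fold higher or lower. Positions are from GENCODE vM21. Ratios were tested on simulated counts of 32285 genes for the Spp1 and C1q macrophage-like comparison, in which 100.0% of the 4-fold changed genes with 20 expected UMIs were recovered and 95.7% of the intervals over 6123 genes held the true ratio, and 6 of 6 simulated clusters were named correctly. These counts were pooled Poisson counts, as the intervals assume, so the coverage says nothing of UMIs spread unevenly over cells. Each simulated cluster had its own markers set far above those of the others, so this checks the code and not hard cases.

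The members, gene lists and tests were chosen with earlier results of these data known. The genes named are all 9 members, every pathway gene past 2-fold, and the 5 genes most like *Acp5* with at least 100 UMIs, less those that are not reported here. A few pathway genes within 2-fold were named after their values were seen. Alternatives were no hemoglobin limit, a 20% mitochondrial limit, 1000 genes per cell, log-normalized counts on 2000 genes without integration, a resolution of 0.8, clustering with the members, classing each cell on its own, removal of high doublet scores, a mean over cells, *Acp5* at 3 UMIs, thinning to 5000 or 1000 UMIs, scaling by the median gene and, added after seeing the data, a myeloid resolution of 0.3, the removed barcodes on their own and the libraries without the PBS cell richest in a gene.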

Additional observations from a re-analysis of the deposited data

Results flagged for a closer look

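The barcodes that the limits removed were examined on their own, a choice made after seeing the data, and 9 values are given because the gene was higher there in the CFA than in the PBS library. Among the 339 CFA and 3178 PBS barcodes over the hemoglobin limit, *Acp5* was at 70.9 CPM in the CFA and 39.5 in the PBS library (ratio 1.79, 1.55 to 2.07). *Dcstamp* was at 3.81 and 0, and *Atp6v0d2* at 3.81 and 0.634 CPM there. Other members were lower in the CFA library in these barcodes, with ratios of 0.538 for *Ctsk*, 0.327 for *Nfatc1* and 0.252 (0.128 to 0.450) for *Itgb3*, and *Calcr* had 0 UMIs against 40.

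Among the 1356 CFA and 1826 PBS barcodes with too few genes or too many mitochondrial UMIs, *Acp5* was at 23.1 and 3.31, *Dcstamp* at 41.0 and 0, and *Atp6v0d2* at 30.1 and 0 CPM. *Ctsk* was at 12.0 and 5.64, *Nfatc1* at 31.5 and 12.6, and *Itgb3* at 9.13 and 5.64. For *Dcstamp* in the CFA library, 211 UMIs lay in these barcodes and 5451 in the kept cells.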

How the results depend on the processing

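Alternatives were run on the ratios of *Acp5*, *Ctsk*, *Dcstamp*, *Atp6v0d2* and *Nfatc1*, and none of those of at least 2-fold changed direction. The ratios of the other members and of the pathway genes were not run under them. The *Ctsk* ratio of CFA to PBS, near 1, went below it as a mean over cells, and the *Nfatc1* ratio of Spp1 to C1q macrophage-like cells had an interval that included 1 without the hemoglobin limit and with each cell classed on its own. Of the values that answer a comparison, 104 stayed within their interval and 37 moved beyond it, and among the other values 80 stayed and 28 moved. Without the hemoglobin limit, the ratios of Spp1 to C1q macrophage-like cells were 2.49 for *Acp5*, 7.82 for *Dcstamp*, 7.92 for *Atp6v0d2* and 0.939 (0.794 to 1.11) for *Nfatc1*, the ratios of CFA to PBS were 4.74 for *Acp5*, 1.23 for *Ctsk* and 0.945 for *Nfatc1*, the share of Spp1 macrophage-like cells with *Acp5* was 93.0%, and 55.8% of these held at least 3 other members. The class then also held 25 PBS cells, with *Acp5* UMIs in 15, *Nfatc1* in 7, *Ctsk* in 1 and *Dcstamp* and *Atp6v0d2* in 0. With each cell classed on its own, the class grew to 455 CFA cells, the ratios to C1q macrophage-like cells were 3.02 (*Acp5*), 12.0 (*Ctsk*), 17.8 (*Dcstamp*), 9.37 (*Atp6v0d2*) and 0.875 (*Nfatc1*, 0.702 to 1.10), and the shares were 73.4% and 45.5%. At a myeloid resolution of 0.3 they were 2.82 (*Acp5*), 6.52 (*Dcstamp*) and 5.41 (*Atp6v0d2*), and 56.7% held at least 3 others. A mitochondrial limit of 20% gave 5.56 for *Acp5* and 34.6 for *Dcstamp*, and 1000 genes per cell gave 35.5 for *Dcstamp*, whose ratio rests on 2 UMIs in the C1q macrophage-like class. Log-normalized counts gave 58.5% with at least 3 others, and thinning gave 38.7% with *Acp5* (1000 UMIs) and 19.2% with at least 3 others (5000 UMIs). As a mean over cells, the CFA to PBS ratios were 3.72 (*Acp5*), 0.836 (*Ctsk*), 69.6 (*Dcstamp*), 26.6 (*Atp6v0d2*) and 0.871 (*Nfatc1*). Scaled by the median gene they were 8.77 (*Acp5*), 1.18 (*Ctsk*) and 0.935 (*Nfatc1*), and without the highest doublet scores 8.64 (*Acp5*). Without the PBS cell that held the most UMIs of the gene, a choice made after seeing the data, they were 8.35 (*Acp5*) and 278 (*Dcstamp*). The causes of these shifts were not tested. The number of cells with 7 or more members was 0 under all 10 alternatives that could change it.

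No paired analysis was possible because each condition is 1 library. Differences between the conditions therefore cannot be told apart from differences between these libraries, including the loss of 54.4% of PBS and 7.79% of CFA cells to the hemoglobin limit. Shares of cells with a UMI rise with depth, and genes with few UMIs, such as *Oscar* and *Ocstamp*, could not be described by class at this depth.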
